A study of Mus musculus with 2 samples.

Results

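The genes described here encode the factors that start and elongate protein chains on cytosolic ribosomes, together with proteins named after them. They were chosen by name, as every gene whose name in the array files begins with Eif or Eef followed by a digit. This gave 66 genes of 24171 named genes, covered by 148 of the 44170 sequences on the array, and each gene is represented by its brightest sequence, the one with the highest mean log2 intensity over both arrays. The files list 5 Argonaute genes under older Eif2c names; they bind small RNAs and are not translation factors, and they are kept apart as a class of their own. RNA came from long-term haematopoietic stem cells (LT-HSC), sorted by flow cytometry from femur marrow of C57/BL6 mice. The knockout group was 1 array from mice lacking WASH, a protein that starts actin branching on endosomes, and the control group was 1 array from wild type mice. The way WASH was deleted, the age and sex of the animals and the number pooled are not given in the sources used here.

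Initiation is carried by a chain of factors. eIF2 brings the initiator tRNA to the small ribosomal subunit, eIF2B recharges eIF2 with GTP, and eIF3 scaffolds the complex. eIF4F, made of the cap-binding protein eIF4E, the scaffold eIF4G and the helicase eIF4A, loads the mRNA, while eIF1, eIF1A and eIF5 take part in start codon choice. eEF1 then delivers aminoacyl-tRNAs and eEF2 moves the ribosome along. Blood stem cells are known for a low rate of protein synthesis compared with the progenitors they give rise to.

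Intensities are on a linear scale after RMA (robust multi-array average), which equalises the arrays. Median intensity over all sequences was 137.5 on the knockout array and 136.9 on the control array. The 5000 probes of random sequence read 75.7 on the knockout array and 71.3 on the control array, and this is called the random-sequence level below. Washc1, the targeted gene, read 107 in the knockout and 119 in the control with its single sequence, 1.42 and 1.67 times that level. No source used here tells if the deletion covers the probed stretch, so the labels cannot be checked with it. With 1 array per genotype no difference has a replicate error or a test, and array, animal and genotype cannot be told apart. Differences are given as log2 knockout minus control and set against a fixed size of 2-fold. Sequences of the same gene differed from each other with an SD of 0.64 (log2, all genes with several sequences), which covers probe noise and transcript differences but not animals. The probe positions were not known, so overlapping sequences of a gene may share probes. Their agreement need not be independent. Of the 11 stem cell markers 7 were lower in the knockout, with a median of -0.26. Mecom (-1.10), Gata2 (-0.85), Ly6a (-0.49) and Slamf1 (-0.26) were lower and Meis1 (0.96), Hlf (0.47) and Kit (0.30) higher. The other sequence was higher for Gata2 (0.19) and Slamf1 (0.04) and lower for Ly6a (-1.02). Medians of other sequences were -0.35 for Mecom, 0.77 for Meis1, 0.92 for Hlf and -0.005 for Kit. Procr, Tek and Fgd5 were at or below the random-sequence level in both, and Procr and Fgd5 are among the 7 lower.

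As a set the translation factor genes differed little between the arrays. The median difference of the 66 genes was -0.09, against 0.02 over all genes, and 38 of them (57.6%) were lower in the knockout, against 48.3% of all genes. At least 2-fold lower were 6 genes: Eif3e, Eif5a, Eif4a2, Eif2ak2, Eif2b2 and Eif4a1. That is 9.09% of the set, and 6.42% of all genes were as low. At least 2-fold higher was 1 gene, Eif4ebp3, or 1.52% of the set against 5.94% of all genes. Both shares rest on few genes. Of the 66 genes, 59 were above the random-sequence level on both arrays, 5 on neither, 1 (Ago2) only in the knockout and 1 (Ago4) only in the control. Among the 41 genes above the median intensity of all genes, 4 were at least 2-fold lower (5.70% of all genes above it were) and 1 at least 2-fold higher (4.68% of all were). Among the 25 genes above the 75th percentile of intensity, 16 (64%) were lower, against 49.2% of all genes above it. The 25 had a median of -0.13, while all genes above it had a median of 0.01.

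**Figure D1:**
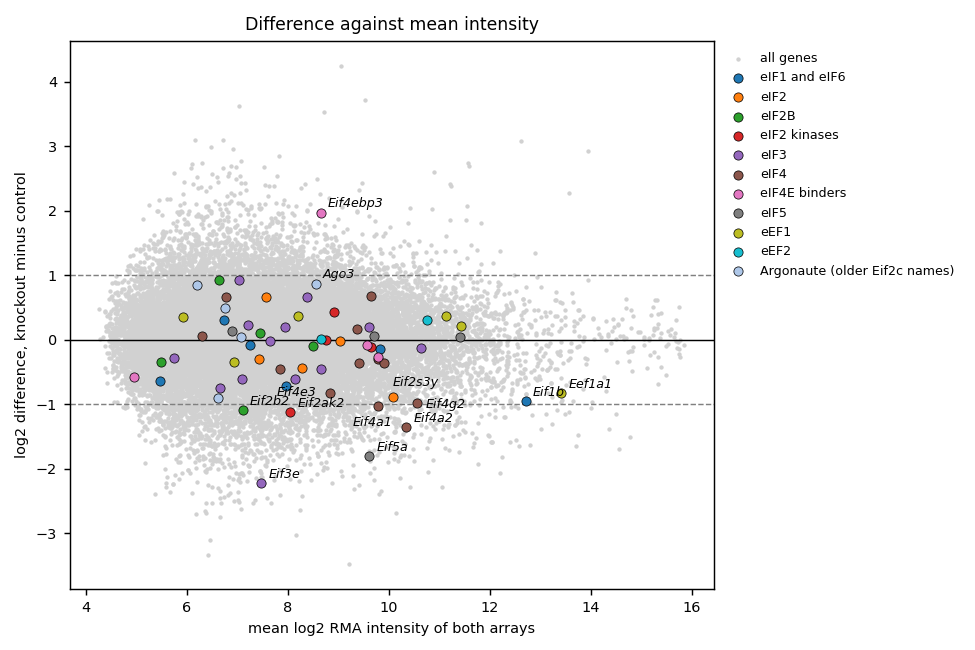
Difference between the knockout and the control array (vertical, log2 units) against the mean log2 RMA intensity of both arrays (horizontal) for all genes (grey) and the translation factor genes, coloured by class; dashed lines mark 2-fold. Eif3e, Eif5a, Eif4a2, Eif2ak2, Eif2b2 and Eif4a1 lie below the lower dashed line and Eif4ebp3 alone lies above the upper one.

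Of the eIF4 genes with several sequences, Eif4a1, Eif4a2 and Eif4g2 were lower in all of them. Eif4a1 and Eif4a2 encode closely related helicases that unwind the leader of an mRNA. Eif4a1 (chr11:69480438-69485817, MM9) read 615 in the knockout and 1255 in the control, a difference of -1.03, and its other sequence was lower too (-0.61). Eif4a2 (chr16:23107828-23114019) read 808 in the knockout and 2079 in the control (-1.36). All 4 of its sequences were lower, but 2 others differed by only -0.44 and -0.07 and the last was below the random-sequence level on both arrays. Their relative Eif4a3 belongs to the exon junction complex on spliced mRNAs. It read 139 in the knockout and 87.3 in the control (0.67), with -0.92 for its other sequence, so its direction is not settled.

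Among the scaffold genes, Eif4g2 stood lower. Its product, also called DAP5, lacks the eIF4E-binding site and serves cap-independent initiation. Its brightest sequence (chr7:118215445-118225082) read 1067 in the knockout and 2099.6 in the control (-0.98), just short of 2-fold. The other read 207 in the knockout and 766 in the control (-1.89). Eif4g1, the main scaffold, read 1017 in the knockout and 636 in the control (0.68), but its 5 sequences ranged from -0.45 to 0.68 with 2 lower. The 5 sequences of Eif4g3 ranged from -1.68 to 0.96, and the brightest differed by -0.37. The value of -1.68 came from a sequence with the higher coordinates of the gene (chr4:137681724-137762386), where 151 was measured in the knockout and 484 in the control. The 2 higher ones, 0.26 and 0.96, were transcripts ending before that stretch. Another with the same start ended just inside it (chr4:137549384-137683349) and was lower (-0.76).

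The cap-binding proteins differed less. Eif4e, the limiting cap-binding subunit, read 699 in the knockout and 622 in the control (0.17), and all 3 of its sequences lay between 0.01 and 0.17. Eif4e2, whose product binds caps without recruiting the scaffold, differed by -0.37, with 3 of 5 sequences lower. Eif4e3 read 345 in the knockout and 609 in the control (-0.82) with 1 sequence. Eif4e1b, an oocyte form, differed by -0.30. Eif4b, a helper of the helicase, differed by -0.45, with 0.64 for its other sequence, and Eif4h, another helper, by 0.06 at about the random-sequence level. Over the 12 genes of eIF4 the median was -0.37, with 8 lower (66.7%, against 48.3% of all genes). Of the 25 other sequences of these genes 14 were lower (median -0.36), and over all genes 9007 of 17715 other sequences were.

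The proteins that hold eIF4E back included the single gene at least 2-fold higher. Eif4ebp3 read 793 in the knockout and 203 in the control, a difference of 1.97. A second sequence, over nearly the same transcript, read 292 in the knockout and 281 in the control (0.06), so the size of this difference rests on 1 sequence. Eif4ebp2 differed by -0.27 and Eif4enif1, which carries eIF4E into the nucleus, by -0.09. Eif4ebp1 was below the random-sequence level on both arrays, at 25.3 in the knockout and 37.9 in the control.

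**Figure D2:**
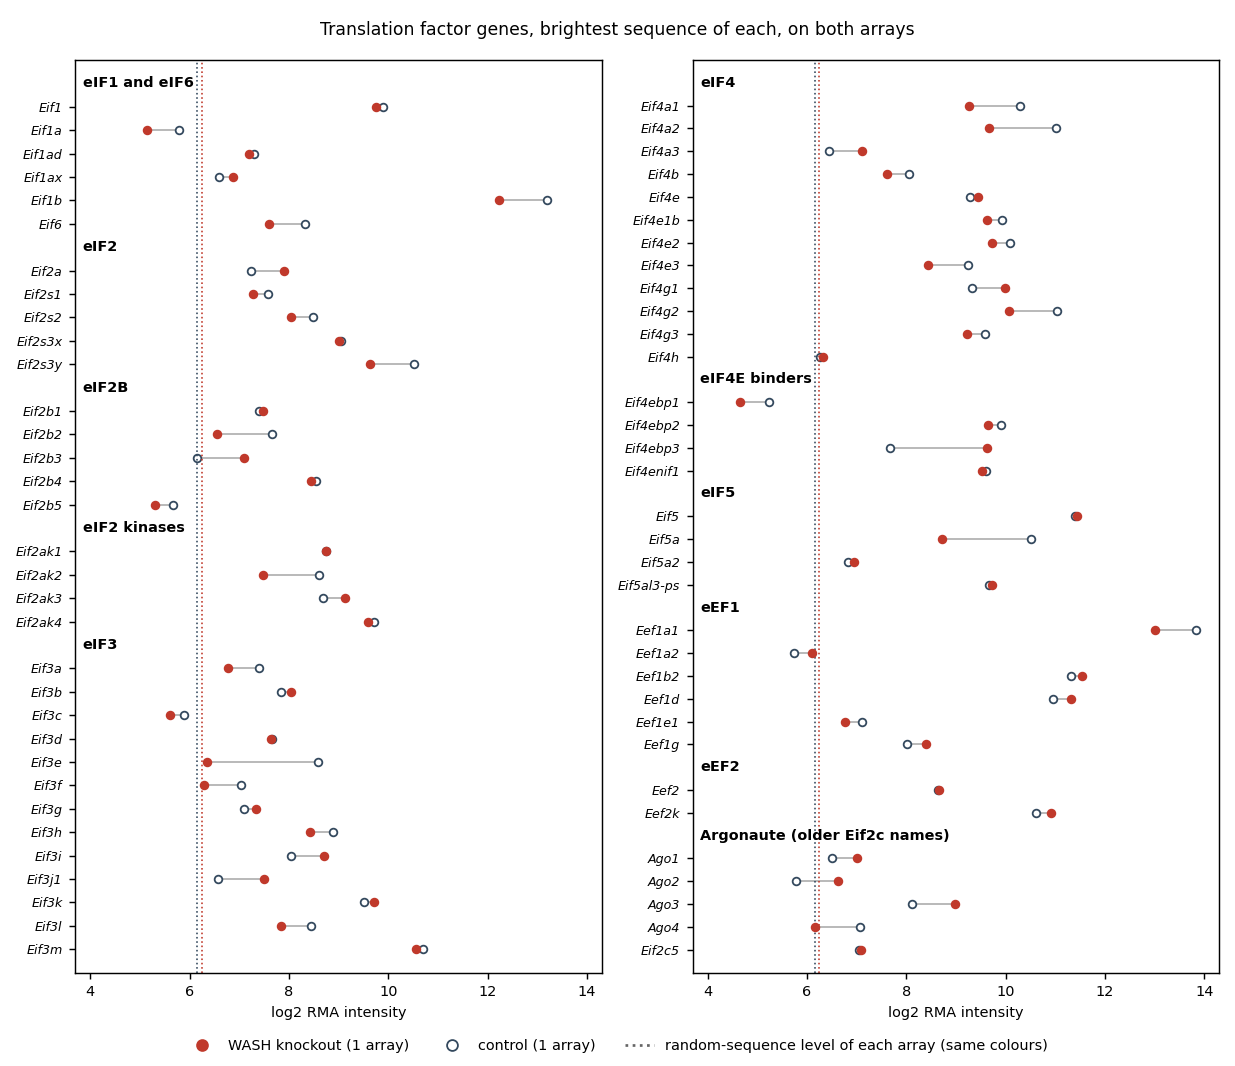
Intensity of the 66 genes on each array (horizontal, log2 RMA intensity, brightest sequence), grouped by class, with the knockout as filled red points and the control as open points; dotted lines give the random-sequence level of each array. The widest gaps are those of Eif3e, Eif4ebp3 and Eif5a, and both points of Eif1a, Eif2b5, Eif3c, Eif4ebp1 and Eef1a2 lie left of their dotted lines.

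Eif5a had the most negative difference after Eif3e. Its product carries hypusine, an amino acid found in no other protein family, and helps ribosomes past stretches of proline. The brightest sequence (chr11:69730221-69734750) read 418 in the knockout and 1467 in the control (-1.81). Of its 6 sequences 5 were lower; the other 4 of these, annotated as variants BD, BE, C and CD of isoform I, differed by -0.31 to -0.75. The exception, variant D, read 125 in the knockout and was below the random-sequence level in the control, at least 1.75-fold higher. The direction for Eif5a thus held in most sequences, and the size of its brightest sequence did not. Its paralogue Eif5a2 differed by 0.14, and the pseudogene Eif5al3-ps, which may share probes with it, by 0.06. Eif5, which triggers GTP hydrolysis by eIF2, read 2754 in the knockout and 2674 in the control (0.04). None of its 6 sequences was lower, and they ranged from 0.02 to 0.97.

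eIF3, the largest factor, was measured through 13 subunit genes with a median of -0.13. Of these, 8 were lower (61.5%, against 48.3% of all genes) and 5 higher. Eif3e (chr15:43081598-43114243) read 82.0 in the knockout, 1.08 times the random-sequence level, and 383 in the control, 5.38 times that level. The difference of -2.22 was the lowest of all 66 genes, but it has 1 sequence and a knockout value near the random-sequence level, and it was singled out after its value was seen. Eif3f, at 77.9 in the knockout and 131 in the control (-0.75), was as close to that level in the knockout. Eif3h, which pairs with Eif3f in the complex, read 345 in the knockout and 471 in the control (-0.45). Both sequences of Eif3l (-0.60 and -0.34), of Eif3m (-0.13 and -0.43) and of Eif3d (-0.03 and -0.30) were lower.

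The remaining subunit genes of eIF3 did not share a direction. Eif3a differed by -0.62, with 0.29 for its other sequence. Eif3b differed by 0.19, with -0.41 for the other. Eif3i differed by 0.66 and -0.55, and Eif3k by 0.19 with its brightest and -0.36 and -0.53 with its other sequences. Eif3j1, a loosely attached subunit, had the most positive difference of the class, at 180.1 in the knockout and 95.3 in the control (0.92), and Eif3g differed by 0.23. Eif3c, counted among the 8 lower genes, was below the random-sequence level on both arrays, at 48.7 in the knockout and 59.5 in the control. Of the 8 further sequences in the whole eIF3 class, 7 were lower, with a median of -0.39. Over all genes 9007 of 17715 further sequences were lower.

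Genes of eIF2 and its partners lay mostly within the spread between sequences. Eif2s1, which carries the serine phosphorylated under stress, read 154 in the knockout and 191 in the control (-0.31). Eif2s2 differed by -0.43, with 0.34 and -0.16 for its other sequences. The gamma subunit is encoded on both sex chromosomes. The X-linked copy Eif2s3x read 516 in the knockout and 526 in the control (-0.03), while the Y-linked copy Eif2s3y read 790.3 in the knockout and 1462 in the control (-0.89), 10.4 and 20.5 times the random-sequence level. The sex of the animals is not given. For Eif2s3y a genotype difference and a different share of males therefore cannot be told apart. Eif2a, an alternative carrier of initiator tRNA, differed by 0.67, but its 4 sequences ranged from -0.97 to 0.67.

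The exchange factor eIF2B was mixed. Eif2b2 read 94.1 in the knockout and 201 in the control (-1.09) with 1 sequence, at 1.24 times the random-sequence level in the knockout. Eif2b3 read 136 in the knockout and 71.5 in the control (0.93), the control value just above that level. Eif2b4 differed by -0.09, with 0.96 for its other sequence, and Eif2b1 differed by 0.10. Eif2b5 was below the random-sequence level on both arrays, at 39.8 in the knockout and 50.7 in the control.

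The 4 kinases that phosphorylate eIF2 each answer a different stress. Eif2ak2 (PKR, bound by double-stranded RNA and induced by interferon) read 179 in the knockout and 391 in the control (-1.13) with 1 sequence. Eif2ak1 (HRI, held back by haem and prominent in red cell precursors) read 428 in the knockout and 432 in the control (-0.01). Its other sequences differed by -0.71, by 0.53 and, for one below the random-sequence level in the control, by at least 2.55-fold upward. Eif2ak3 (PERK, of the endoplasmic reticulum) had a brightest sequence at 560 in the knockout and 414 in the control (0.43), whereas its full-length sequence (chr6:70794508-70855234) differed by -1.33 and another by -0.64. Eif2ak4 (GCN2, a sensor of uncharged tRNA) differed by -0.11, with 3 of 4 sequences lower.

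Of the 6 genes of eIF1, eIF1A and eIF6, 5 were lower (83.3%, against 48.3% of all genes), none of them by 2-fold. Eif1b read 4809 in the knockout and 9314 in the control (-0.95), but its other sequence read 1666 in the knockout and 837 in the control (0.99). These opposite values, nearly equal in size, leave Eif1b without a direction. Eif1 differed by -0.15, with 2 of 3 sequences lower, and Eif6, which keeps the ribosomal subunits apart, by -0.71 with 0.06 for its other sequence. Eif1ax (listed as Eif1ay) differed by 0.30 and Eif1ad by -0.09, and Eif1a, at 35.5 in the knockout and 55.4 in the control, was below the random-sequence level on both arrays.

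Among the elongation factors, Eef1a1 was lower in all of its sequences. The brightest sequences of the exchange subunits differed by less than the SD of 0.64 between sequences of a gene. Eef1a1 delivers aminoacyl-tRNA and is among the most abundant proteins of a cell. Its brightest sequence read 8169 in the knockout and 14516 in the control (-0.83). That sequence is placed on chromosome 2 (chr2:40412523-40412802), away from the gene, and Eef1a1 has many near-identical copies that could share its probes. The 4 sequences placed on chromosome 9 at the gene itself were lower too: the brightest of them read 965 in the knockout and 1886 in the control (-0.97), and the remaining ones differed by -0.53 to -0.95. All 5 sequences thus lay in a narrow range, and none reached 2-fold. The 4 on chromosome 9 overlap and may share probes. Eef1a2, the muscle and nerve form, was below the random-sequence level on both arrays, at 68.3 in the knockout and 53.6 in the control.

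The subunits that recharge eEF1A with GTP were not lower with their brightest sequences. Eef1b2 read 2953 in the knockout and 2540 in the control (0.22), and Eef1g read 335 in the knockout and 259 in the control (0.37). Eef1d read 2555 in the knockout and 1975 in the control (0.37), but its 5 sequences ranged from -0.96 to 0.45 with 2 lower. Eef1e1, a scaffold of the tRNA synthetase complex, differed by -0.34. Eef2 read 405 in the knockout and 400.2 in the control (0.02), and its other sequence differed by 0.08. Eef2k, the kinase that inhibits eEF2, differed by 0.30 with its brightest sequence, while its other 3 were lower, by -0.18 to -0.50. No elongation gene reached 2-fold.

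The Argonaute genes had 1 sequence each. Ago3 read 507 in the knockout and 278 in the control (0.87), and Ago1 read 128 in the knockout and 91.0 in the control (0.49). Ago2, at 98.3 in the knockout and 54.6 in the control, was higher by at least 1.38-fold. Ago4, at 71.5 in the knockout and 134 in the control, was lower by at least 1.77-fold. In both genes the weaker array did not exceed the random-sequence level. Eif2c5 differed by 0.04.

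**Figure D3:**
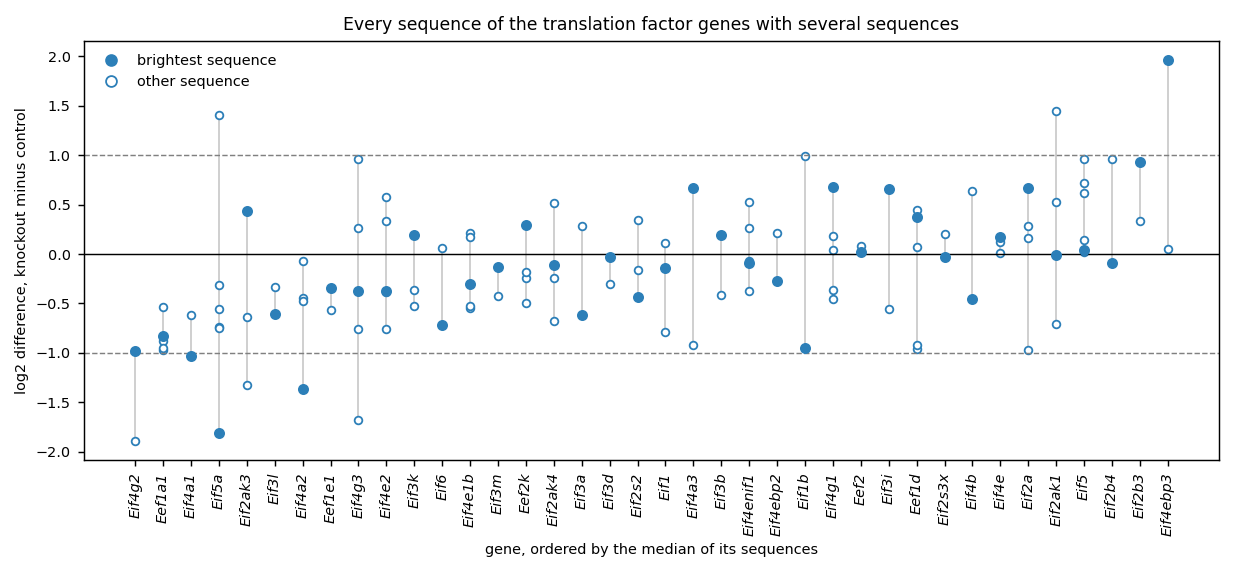
Log2 difference, knockout minus control, of every sequence of the 38 genes with several sequences, ordered along the horizontal axis by the median of each gene; filled points are the brightest sequences, open points the others, and dashed lines mark 2-fold. Every point of Eif4g2, Eef1a1, Eif4a1 and Eif4a2 lies below 0 and every point of Eif5 and Eif4e above it, while Eif1b, Eif2ak1, Eif4g3 and Eif5a have points far apart on both sides.

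Sequences of the same gene often differed. Of the 38 genes with several sequences, all sequences were lower in 8 (21.1%, against 19.0% of all such genes) and all were higher in 5 (13.2%, against 20.0%). The 8 were Eef1a1, Eef1e1, Eif3d, Eif3l, Eif3m, Eif4a1, Eif4a2 and Eif4g2, and the 5 were Eef2, Eif2b3, Eif4e, Eif4ebp3 and Eif5. In no gene were all sequences at least 2-fold different. With the mean of sequences in place of the brightest, Eif4a1 (-0.82), Eif4a2 (-0.59) and Eif5a (-0.46) did not reach 2-fold, Eif4g2 (-1.43) did, and Eif4ebp3 was at 1.01. The SD between sequences of a gene was 0.63 for these genes. Across the 38 genes the brightest and the next brightest sequence correlated at Pearson r = 0.17 and Spearman rho = 0.07, values that come from the same pair of arrays and describe them only. Of the 148 sequences, 9 were at least 2-fold lower (6.80% of all named sequences were) and 3 at least 2-fold higher (5.99% of all).

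Promoter sequences from RefSeq (build GRCm38.p6) were found for 51 of the 66 genes. Translation factor mRNAs are known for a terminal oligopyrimidine (TOP) tract, a run of C and T bases at the very start of the transcript through which mTOR controls their translation. The search took a C within 5 bases of the annotated start, followed by at least 4 bases that are C or T, on the transcribed strand. It was found in 16 of the 51 genes (31.4%), against 21.2% of 27025 genes with a promoter entry. The 51 genes had 67 annotated starts and the 27025 had 32851. The comparison was not matched for the number of starts, for intensity or for presence on the array. Of the 10 known TOP mRNAs among the genes 6 had an entry, and Eef1a1 and Eif3f had a match there. The match is a run of letters near the annotated start and need not be the tract of the mRNA: that of Eef1a1 begins 5 bases before the annotated start and is not printed. The 10 had a median difference of -0.45, from -2.22 for Eif3e to 0.37 for Eef1d, with 6 lower (60%) and 4 higher. Of the 16 genes with a match 12 were lower (75%, median -0.10), and of the 35 without one 18 were lower (51.4%, median -0.03). Over all genes on the array 48.3% were lower. Stretches of 30 bases, from 10 before to 20 after the annotated start, are printed for 2 subunits of eIF3 and for both copies of the gamma subunit of eIF2, with the run in capitals. It begins 4 bases before the start in Eif3f and 1 base before it in Eif2s3x, and at transcribed base 5 in Eif3l and 2 in Eif2s3y. In Eif3l a shorter run, left in lower case, begins 5 bases before the start and also meets the search.
Eif3f (chr7:108934405-108934434, plus strand): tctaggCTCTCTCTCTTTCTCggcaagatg
Eif3l (chr15:79075213-79075242, plus strand): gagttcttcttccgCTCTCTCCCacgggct
Eif2s3x (chrX:94212632-94212661, minus strand): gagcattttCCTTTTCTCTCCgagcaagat
Eif2s3y (chrY:1010585-1010614, plus strand): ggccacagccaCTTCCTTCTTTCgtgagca
The X-linked and Y-linked copies both have a run at the annotated start, and differed by -0.03 and -0.89, the second with the sex of the animals unknown.

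The transcription factor c-Myc, which the published study of WASH in blood stem cells dealt with, pairs with Max to bind the E-box CACGTG. This motif, which reads the same on both strands, was found between 250 bases before and 50 bases after the start in 12 of the 51 genes (23.5%), against 8.09% of all genes with an entry. This comparison was likewise not matched for starts, intensity or presence on the array. The 12 had a median difference of 0.04 with 5 lower (41.7%), and the 39 genes without it had -0.09 with 25 lower (64.1%). Over all genes on the array 48.3% were lower. Upstream stretches of 40 bases are printed for the 5 genes with the largest differences among those with an E-box before the start and for Eif4e, with the E-box in capitals.
Eif4e, 228 bases before the start (chr3:138527023-138527062, plus strand): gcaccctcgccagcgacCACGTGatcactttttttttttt
Eif4e, 64 bases before the start (chr3:138527187-138527226, plus strand): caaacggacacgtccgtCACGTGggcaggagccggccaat
Eif4a1, 189 bases before the start (chr11:69672590-69672629, minus strand): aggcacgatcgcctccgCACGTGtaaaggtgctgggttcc
Eif5a, 178 bases before a start (chr11:69920786-69920825, minus strand): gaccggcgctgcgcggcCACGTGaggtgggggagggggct
Eif5a, 74 bases before another start (chr11:69921438-69921477, minus strand): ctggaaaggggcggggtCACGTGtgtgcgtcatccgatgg
Eif1b, 24 bases before the start (chr9:120492565-120492604, plus strand): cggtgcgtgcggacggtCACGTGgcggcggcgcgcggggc
Eif3f, 68 bases before the start (chr7:108934330-108934369, plus strand): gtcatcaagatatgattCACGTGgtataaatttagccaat
Eif4g1, 54 bases before the start (chr16:20672656-20672695, plus strand): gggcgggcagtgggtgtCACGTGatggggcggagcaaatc
Among these, Eif4a1, Eif5a and Eif3f differed by -1.03, -1.81 and -0.75, Eif4e and Eif4g1 were higher by 0.17 and 0.68, and the sequences of Eif1b opposed each other. A match is a string of letters and no measured binding.

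Other translation genes were counted by list against the same background of 6.42% lower and 5.94% higher by 2-fold. Termination and recycling genes had 1 of 6 at least 2-fold lower: Gspt1, which encodes the release factor eRF3, read 84.1 in the knockout and 275 in the control (-1.71), with a median of -0.07 for its 3 other sequences. Among 4 genes of poly(A)-binding proteins and partners, Pabpc4 was at least 2-fold higher, at 5458 in the knockout and 1044 in the control (2.39). The median of its 6 other sequences was 1.11. Pabpc1, the main form, differed by -0.40.

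Of 7 initiation cofactors, the helicase gene Ddx3x was lower, at 306 in the knockout and 767 in the control (-1.33, 1 sequence). The list had 5 lower (71.4%, against 48.3% of all genes) and a median of -0.41. None of the 10 genes of mTOR and MNK signalling reached 2-fold (median 0.02), with Mtor at 0.04 and Rps6kb1 at 0.00. In the eIF2 phosphatase and stress response list, Ppp1r15b, a subunit of the phosphatase, read 599 in the knockout and 2213 in the control (-1.89), with -0.07 for its other sequence. The stress factor gene Atf4 differed by -0.73, and the median of the 8 genes was -0.06.

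Hypusine and diphthamide synthesis genes, which modify eIF5A and eEF2, had none of 8 at 2-fold and a median of -0.20. Dhps, the first enzyme of hypusine synthesis, differed by -0.65. Mitochondrial factors had 1 of 9 at least 2-fold lower (Gfm1, -1.07) and 1 for which a higher brightest sequence came with a control value below the random-sequence level (Tsfm, at least 2.07-fold). The 20 cytosolic tRNA synthetases had a median of 0.19. Farsa (-1.35) and Rars (-1.11) were at least 2-fold lower, and Kars (1.69) and Hars (1.10) at least 2-fold higher.

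**Figure D4:**
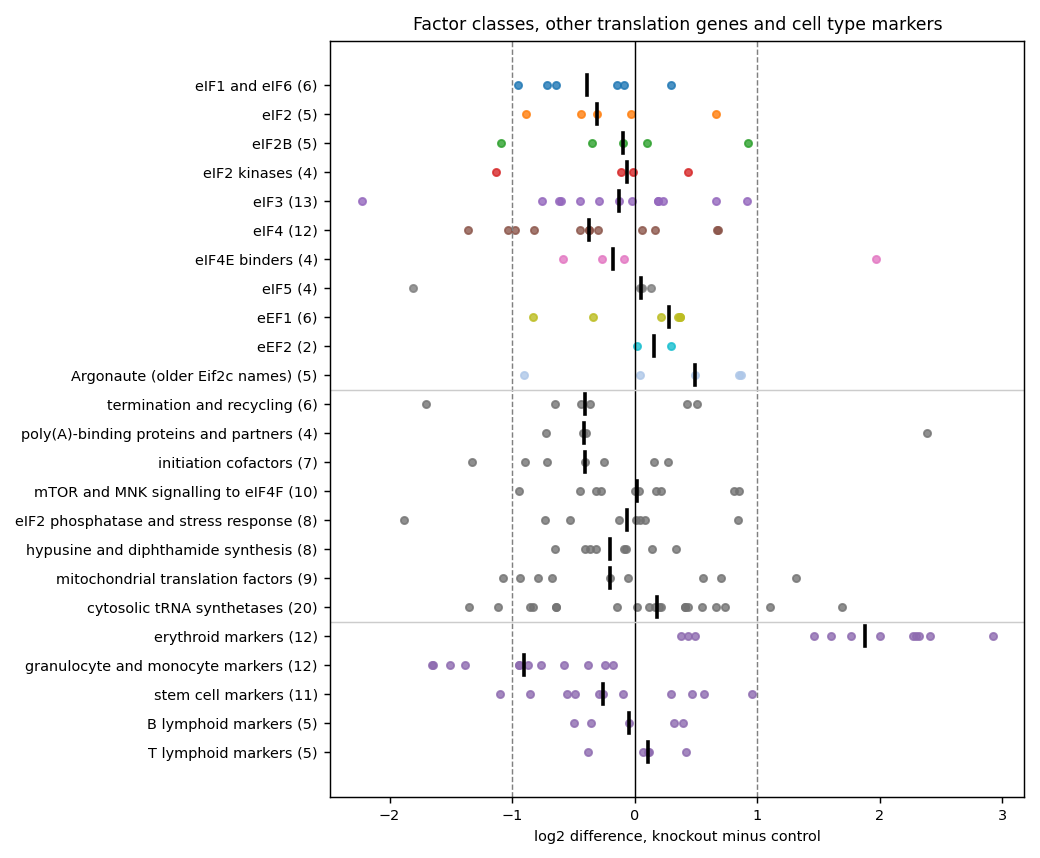
Log2 differences, knockout minus control, of single genes (points) by factor class (top), list of other translation genes (middle) and cell type marker list (bottom), with the number of genes in brackets; black bars are medians and dashed lines mark 2-fold. Medians of the factor classes lie between -0.39 and 0.49, against 1.88 for the erythroid list and -0.91 for the granulocyte and monocyte list.

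Erythroid markers and granulocyte and monocyte markers differed in opposite directions. All 12 erythroid markers were higher in the knockout, 9 of them by at least 2-fold, and their summed intensity was 83571 in the knockout and 15944 in the control. All 12 granulocyte and monocyte markers were lower, 4 of them by at least 2-fold, with sums of 55413 in the knockout and 141947 in the control. Beside these sums, the 11 stem cell markers came to 2488 in the knockout and 3019 in the control. How pure the sorted cells were was not tested. No granulocyte or monocyte marker was at or below the random-sequence level on either array, and of the erythroid list Car1 and Klf1 were so in the control alone. The part of these cell types in the lower Eif4a1, Eif4a2, Eif4g2, Eif5a and Eef1a1 or in the higher Eif4ebp3 was not tested. In sorted cells measured in bulk, fewer cells of a type and less RNA per cell cannot be told apart. The B and T lymphoid lists, with 5 genes each, had medians of -0.05 and 0.11 and no gene at 2-fold.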

How the data were processed

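Each deposited array file holds linear intensity values, 1 for every sequence, which the authors made with RMA, per the submitters' processing notes (no version given). Per the file headers, 44155 of 44170 sequences were summarised from 3 probes and coordinates are on MM9. The authors' series table held 34219 sequences, 34218 of them at 50 or more on both arrays, and served as an alternative. Differences were taken between log2 intensities, with no scaling added. Symbols in the files were brought up to date by gene identifier in RefSeq (66 of 66 translation factor genes matched, 7 symbols changed). No replicates exist, so genes were counted at 2-fold and no p-value was computed. For a sequence at or below the random-sequence level on 1 array, that value was replaced by the level to give the fold as a bound. Counts, medians and log2 differences used the values without this replacement. With 3 probes and 1 array behind each value, both limit the precision, and the spread between arrays of a genotype was not measured.

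The genes and lists were chosen with earlier results of these data known. The text names, per class, genes at least 2-fold different with a mean log2 value above the median of all genes, the 3 brightest, paralogue sets, and genes with sequences at least 2-fold different in opposite directions; other members are given to account for the class. Alternatives were 14 planned settings and 2 added after seeing the data. Counting and sequence choice were tested on simulated data. Python 3.11.15, pandas 2.3.3 and statsmodels 0.14.6 (lowess, span 0.3) were used.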

Additional observations from a re-analysis of the deposited data

How the results depend on the processing

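No paired analysis was possible because a single array stands for knockout and a single one for control, without a test. Against 6 translation factor genes at least 2-fold lower and 1 at least 2-fold higher in the knockout, the genes lower numbered 3 with an offset of 64 before the log, 3 above the 75th percentile of intensity, 17 at 1.5-fold and 2 at 3-fold. In that order these were 4.55%, 12%, 25.8% and 3.03% of the translation factor genes. The shares of all genes lower were 2.70%, 5.71%, 17.1% and 1.33%. With the offset Eif2ak2 (-0.91), Eif2b2 (-0.74) and Eif4a1 (-0.96) no longer reached 2-fold. With the mean of sequences 4 were lower (6.06%, against 4.63% of all genes): Eif4a1 (-0.82), Eif4a2 (-0.59) and Eif5a (-0.46) no longer reached it, Eif4g2 (-1.43) did, and Eif4ebp3 was at 1.01. The genes higher numbered 2 with the dimmest sequence, 0 above the 75th percentile, 0 with factors and subunits only, and 9 at 1.5-fold. In that order 6.04%, 3.52%, 5.94% and 17.6% of all genes were higher. The 9 at 1.5-fold were 13.6% of the set. The 2 with the dimmest sequence were Eif2ak1 (1.45) and Eif5a (1.41), each with a control value below the random-sequence level. Eif4ebp3 was not among them, at 0.06 with its dimmest sequence. Stricter filters and sizes count fewer genes by construction. The median difference of all these genes stayed below 0 in all 14 settings that gave one, from -0.27 (dimmest sequence) to -0.06 (series table). Eif5a turned to 1.41 with its dimmest sequence; that alternative reads another sequence. The eIF5 median moved to 0.43 with the dimmest sequence, and the eEF2 median to -0.053 with the mean of sequences and -0.21 with the dimmest. Class medians of eIF2B, the eIF4E binders, eEF1, the eIF2 kinases and eIF3 also changed sign under some settings, the eIF3 median to 0.03 above the 75th percentile, while those of eIF1 and eIF6, eIF2 and eIF4 stayed below 0 in all 14. Placing Eef1a1 by its chromosome 9 sequences and leaving out the Argonaute genes, both chosen after seeing the data, left both counts as they were. Dim genes near the random-sequence level limit what can be read.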

Other observations

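Sequences outside the name rule also carried translation factors. A sequence without a gene symbol, described in the files as similar to elongation factor eEF2, read 3487 in the knockout and 4645 in the control (-0.41), at 46.1 and 65.2 times the random-sequence level. A predicted gene similar to eEF1A1, Gm7161, read 5384 in the knockout and 7074 in the control (-0.39). The pseudogenes Eif1-ps1, Eif1-ps2 and Eif1-ps3 differed by -0.24, -0.29 and -0.36, beside -0.15 for Eif1, while Gm16378, described as similar to eIF1, was higher, at 1308 in the knockout and 973 in the control (0.43). Eif2d, listed under the older name Lgtn, read 2129 in the knockout and 1497 in the control (0.51). Its other sequences differed by -0.31 to 1.81, the highest with a control value below the random-sequence level. With names updated the rule took in 73 genes, with a median of -0.15. At least 2-fold lower were 7 (9.59%, against 6.42% of all genes). At least 2-fold higher was 1 (1.37%, against 5.94% of all genes).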
